A study of Arabidopsis thaliana with 16 samples.

Results

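The light response described here is that of 4-day-old Arabidopsis seedlings grown in continuous far-red light, set against seedlings kept in the dark, where both had been given the steroid dexamethasone (DEX). All samples titled as far-red with DEX (4 arrays) and as dark with DEX (4 arrays) were taken, 8 of the 16 arrays in the series, and all 22746 probe sets that are not controls of the array maker were compared. Every seedling carried the FHY3-GR fusion under the FHY3 promoter in the fhy3-4 mutant background, and every one of these 8 samples had received 10 µM DEX for the last 2 h in its own light condition. FHY3 is a transcription factor of phytochrome A signalling, and GR, the glucocorticoid receptor part, holds the fusion protein in the cytoplasm until DEX is given. The other 8 arrays, far-red mock and dark mock, came from the same line given the ethanol solvent alone. By the design of the fusion, mock seedlings lack FHY3-GR in the nucleus, and no group carries an unmodified FHY3 gene. The labels name no separate transgenic lines within a group, and they call the 4 samples of each group independent biological replicates. FHY3 itself was not analysed here, and the labels are therefore unchecked by its own signal.

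A seedling that emerges in darkness elongates its hypocotyl, keeps its cotyledons closed and holds its plastids as etioplasts. Far-red light is read almost only by phytochrome A, which needs FHY1 and its relative FHL to enter the nucleus, and FHY3 activates the genes of both. Phytochrome A then lets light-regulated transcription factors such as HY5 and HYH accumulate, hypocotyl growth slows and photosynthesis genes are switched on. Continuous far-red light does not convert protochlorophyllide, so seedlings open their cotyledons without turning green.

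All values are log2 signals per probe set as deposited. A log2 change is far-red DEX minus dark DEX, so a positive value means a higher signal in far-red DEX, and ± gives its standard error, or the SD over 4 arrays where so marked. A probe set was called when its adjusted p in the limma fit was under 0.05. Medians of the 8 arrays lay between 6.61 and 6.68, arrays of the same DEX group correlated at 0.9963 to 0.9981 over all probe sets, and arrays of different DEX groups at 0.9749 to 0.9773. As a measure of RNA quality, 3′ minus 5′ log2 signal of the ubiquitin control transcript was 1.27 ± 0.06 in far-red DEX and 1.21 ± 0.04 in dark DEX (SD, n = 4 each; exact permutation p = 0.143, two-sided, adjusted p = 0.286 over 2 transcripts), and that of the GAPDH control was 1.0 ± 0.15 in far-red DEX and 0.94 ± 0.11 in dark DEX (exact permutation p = 0.543). The RNA came from whole seedlings, so fewer cells of a type and less RNA per cell cannot be told apart in any value below. Of the cell type markers measured, none of 3 root genes was called. Of 3 antenna genes taken as markers of cotyledon mesophyll, 2 were called higher and 1 lower. These are LHCB4.1, LHCB4.2 and LHCB4.3, which also belong to the thylakoid list below, and so give no separate check of it. Of 3 genes of the stomatal lineage 1 was called, the regulator SPCH, whose change was -0.62 ± 0.10 (adjusted p = 2.76e-05).

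The first question is which transcripts differ between far-red and dark when DEX has been given. COR15A, which encodes a chloroplast protein that protects membranes in the cold, had the largest fitted rise among genes with a single-gene probe set. Its signal was 9.49, 9.28, 9.40 and 9.47 on the far-red DEX arrays, against 4.47, 4.28, 4.65 and 4.01 on the dark DEX arrays. The lowest far-red array stood far above the highest dark array, and the mean was 33.3-fold higher (log2 change 5.06 ± 0.12, adjusted p = 2.25e-17). The dark mean of 4.35 lies under 4.45, the lower quartile of probe sets. The files give no detection calls, so a signal under that value is not shown to be above background and a fold against it describes the deposited signals only, here and for JRG21, AT2G25150, CML37, BCAT4 and SDP1-LIKE. EXPB1, a beta-expansin that loosens cell walls, fell most among the members of the gene lists described below. Its signal was 4.97, 4.99, 4.94 and 4.64 on the far-red DEX arrays, against 7.76, 7.71, 7.65 and 7.45 on the dark DEX arrays. The groups did not overlap, and the mean was 6.76-fold lower in far-red DEX (log2 change -2.76 ± 0.12, adjusted p = 1.47e-13).

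The call was made for 9027 of 22746 probe sets (39.7%): 3972 (17.5%) stood higher and 5055 (22.2%) stood lower. More were called lower than higher, but the larger changes were mostly rises: at a fold of 2 or more 773 rose and 550 fell, and at a fold of 8 or more 32 rose and 5 fell. The median change over all probe sets was -0.03. Apart from the test, the 4 arrays of one group lay wholly above or below those of the other for 39.7% of probe sets, 17.4% higher and 22.4% lower. With 1 probe set for each of the 13355 genes that can be named, 36.2% were called, 16.1% higher and 20.1% lower, with a median of -0.02, and the arrays lay apart for 36.5%, 16.3% higher and 20.2% lower. These per-gene shares are the background against which each count of list members below is read, beside the shares of all listed genes given with the lists. Calls were rarer among dim probe sets, with 7.23% called below the lower quartile of signal and 57.7% above the upper quartile. Of the 9371 genes at or above the lower quartile, 48.8% were called. Of 923 pseudogenes with a probe set 2.38% were called, and of 12293 protein-coding genes 38.9%.

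The rankings that follow cover single-gene probe sets, and probe sets without 1 named gene reached a rise of 5.07 and a fall of -3.71 on the log2 scale. Genes in these rankings that carry only a locus number in the annotation used here are given without a role. After COR15A, the largest rises were those of AT3G57020 (23.8-fold), AT3G28220 (22.6-fold), AT1G15010 (19.7-fold), COR15B (15.9-fold) and AT2G43620 (12.4-fold). The largest falls were those of AT1G30760 (9.1-fold lower), AT2G25150 (8.67-fold lower, to a dim 4.33 in far-red DEX), AT1G53690 (8.56-fold lower), AT1G12010 (7.73-fold lower) and AT4G22460 (7.53-fold lower). None of the genes in these 2 rankings had overlapping groups.

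**Figure D1:**
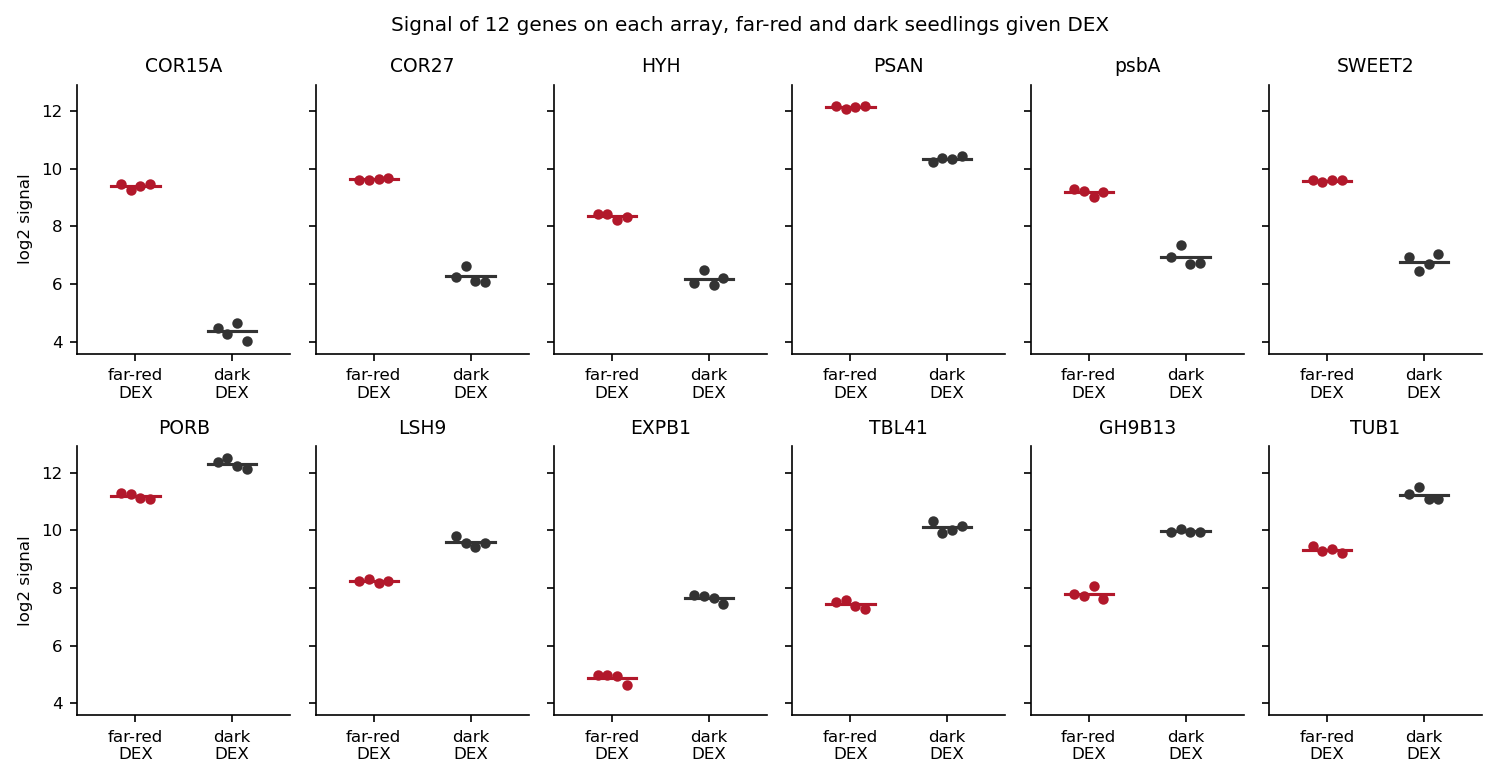
Log2 signal of 12 genes (vertical axis) on each of the 4 far-red DEX arrays, left and red, and the 4 dark DEX arrays, right and dark grey; horizontal lines are group means. The first 6 genes are higher and the last 6 lower in far-red DEX, and in no panel do the groups overlap; COR15A averages 9.41 in far-red DEX and 4.35 in dark DEX, and EXPB1 4.89 in far-red DEX and 7.64 in dark DEX.

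Genes were then grouped into 62 lists by function or family, holding 900 genes, of which 212 were called higher (23.6%) and 235 lower (26.1%). Listed genes were thus called more often than all genes (16.1% higher and 20.1% lower). Members were matched by gene name, and 1557 of the 13355 genes (11.7%) carry a symbol. A list therefore need not hold its whole family. Genes of the photosynthetic apparatus came out higher more often than the background. Of 25 nuclear genes for thylakoid proteins, 19 rose and 5 fell, with a median change of 0.69. PSAN, a lumenal subunit of photosystem I, had signals of 12.18, 12.10, 12.15 and 12.20 on the far-red DEX arrays, against 10.24, 10.39, 10.34 and 10.45 on the dark DEX arrays. That is a 3.49-fold difference with no overlap (log2 change 1.80 ± 0.07, adjusted p = 6.41e-14). PIFI, a stromal protein that acts with the NDH complex in electron flow around photosystem I, rose 4.09-fold. PSBW, a small subunit of photosystem II, rose 2.27-fold, and TAPX, the thylakoid ascorbate peroxidase that removes hydrogen peroxide, rose 2.09-fold. PSB27, which assists the assembly of photosystem II, rose 1.77-fold.

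Within small families the members differed. Of the 3 genes for the CP29 antenna protein, which links the outer antenna to photosystem II, LHCB4.1 rose 1.85-fold (log2 change 0.89 ± 0.08) and LHCB4.3 1.64-fold (0.71 ± 0.09). LHCB4.2 fell 1.3-fold, with 11.15 ± 0.04 in far-red DEX and 11.53 ± 0.19 in dark DEX (SD, n = 4 each). Its arrays lay apart at a log2 change of -0.37 ± 0.09 (adjusted p = 0.00124). ATPC1, the gamma subunit of the chloroplast ATP synthase that turns the motor, rose 1.84-fold, while its paralog ATPC2 had a change of -0.25 ± 0.10 (adjusted p = 0.0409), a call that was lost, with changes of -0.20 to -0.26, when any one of dark DEX replicates 2, 3 and 4 or far-red DEX replicates 2, 3 and 4 was left out, and at -0.22 with quantile normalisation. LIL3:2, a light-harvesting-like protein of chlorophyll synthesis, fell 1.67-fold, and LIL3:1 stood at -0.11 ± 0.08 (adjusted p = 0.315). TAAC, an ATP carrier of the thylakoid membrane, fell 1.26-fold. All 25 members were brighter than the lower quartile of probe sets.

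The plastid genome encodes core subunits of the same complexes. Of 42 plastid genes for photosystem I, photosystem II, the cytochrome b6f complex, the ATP synthase and the NDH complex, 34 rose, 0 fell and 8 were not called, with a median change of 0.58. psbA, which encodes the D1 reaction centre protein that is replaced throughout a leaf's life, changed most. Its signal was 9.31, 9.25, 9.03 and 9.21 on the far-red DEX arrays, against 6.93, 7.35, 6.68 and 6.74 on the dark DEX arrays. The groups lay well apart, and the mean was 4.84-fold higher (log2 change 2.28 ± 0.13, adjusted p = 1.46e-11). By contrast psbD, which encodes the partner protein D2, changed by 0.24 ± 0.16 (adjusted p = 0.255).

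In photosystem II, 13 of 15 genes rose, psbH by 3.17-fold and psbM by 1.57-fold among them. The other member not called was psbZ, at 0.40 ± 0.16 (adjusted p = 0.0575), which passed at 0.40 with the replicate block and at 0.57 without dark DEX replicate 2. In photosystem I, 4 of 5 genes rose, with psaB, a reaction centre protein, 2.1-fold and psaA, its partner, 1.34-fold higher. psaC, the iron-sulfur subunit, was spread widely in the dark, with 6.11, 6.24, 5.98 and 6.08 in far-red DEX, against 6.80, 6.72, 5.70 and 6.30 in dark DEX. Its groups overlapped (log2 change -0.27 ± 0.30, adjusted p = 0.528). For the cytochrome b6f complex, which passes electrons between the photosystems, 4 of 6 genes rose, petG by 2.48-fold and petB by 1.76-fold. The dim petD (4.33 in far-red DEX and 4.32 in dark DEX) stood at 0.01 ± 0.09. All 6 genes of the ATP synthase rose, from 1.38-fold for atpE to 2.4-fold for atpI, with atpA at 1.75-fold. Of 10 genes of the NDH complex, which returns electrons to the plastoquinone pool, 7 rose, with ndhD the highest at 1.95-fold. The dim ndhF (3.33 in far-red DEX and 3.42 in dark DEX) and ndhH were not called (adjusted p = 0.495 and 0.502).

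Plastid genes for the organelle's own expression machinery were called less often than the background of 36.2%. Of 19 plastid genes for the RNA polymerase and ribosomal proteins, 2 rose and 1 fell, 15.8% called, with a median of 0.00. The 2 that rose were rpl33 (log2 change 0.60 ± 0.11) and rpl32 (0.41 ± 0.15), and rpl16 fell by 0.58 ± 0.19. Leaving out 1 array ended the call of rpl32 (0.31 to 0.37 without dark DEX replicate 3 or 4 or far-red DEX replicate 1 or 2) and that of rpl16 (-0.44 to -0.50 without dark DEX replicate 1 or 2 or far-red DEX replicate 4). Both were also lost with a trended and robust variance prior. None of the 4 subunits of the polymerase was called, with 0 at an adjusted p under 0.05 in limma, and rpoC1 was the most changed at -0.51 ± 0.24 (adjusted p = 0.0968), which passed at -0.51 with array weights or with only the 8 DEX arrays in the fit, and at -0.71 without dark DEX replicate 1. Of 16 mitochondrial genes 0 rose and 2 fell, orfX by 0.29 ± 0.11 and ccb382 by 0.22 ± 0.08, and cox1, a subunit of cytochrome oxidase, stood at -0.01 ± 0.10. Both mitochondrial calls were lost when any of 6 single arrays was left out, at -0.23 to -0.31 for orfX and -0.18 to -0.23 for ccb382, the arrays being all but dark DEX replicate 2 and far-red DEX replicate 4 for orfX and all but far-red DEX replicates 2 and 3 for ccb382. The call of ccb382 was also lost with the replicate block (-0.22) and that of orfX with quantile normalisation (-0.25). Plastid and mitochondrial messages are often processed from shared precursors and mostly lack the long poly(A) tails of nuclear ones. How the samples were primed for labelling is not given in the sources used here, so organelle levels are read only between samples and per probe set.

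Of 10 genes of carbon fixation and its redox control, 8 rose and 0 fell, with a median of 0.68. RCA, rubisco activase, which clears inhibitors from the carbon-fixing enzyme, had signals of 13.38, 13.32, 13.32 and 13.27 on the far-red DEX arrays, against 11.85, 11.97, 11.82 and 11.80 on the dark DEX arrays. The difference was 2.75-fold with no overlap (log2 change 1.46 ± 0.07, adjusted p = 4.45e-13). HPR, the peroxisomal hydroxypyruvate reductase of photorespiration, rose 3.83-fold, SBPASE, a bisphosphatase of the Calvin cycle, 2.21-fold, and AT5G58330, the NADP-dependent malate dehydrogenase of the chloroplast, 2.69-fold. The redox regulators TRXF2, an f-type thioredoxin, and NTRC, an NADPH thioredoxin reductase, rose 1.68-fold and 1.41-fold. MDH, a plastid NAD-dependent malate dehydrogenase, stood at 0.01 ± 0.07 (adjusted p = 0.908), and LSMT-L at 0.08 ± 0.10 (adjusted p = 0.573).

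The pigment pathway was mixed, with 5 of 15 genes higher, 3 lower and a median of 0.02. PORB, a light-dependent protochlorophyllide oxidoreductase, fell: its signal was 11.31, 11.25, 11.12 and 11.09 on the far-red DEX arrays, against 12.37, 12.51, 12.23 and 12.15 on the dark DEX arrays. All far-red arrays lay below all dark arrays, a 2.18-fold difference (log2 change -1.13 ± 0.08, adjusted p = 6.19e-10). AT1G74470, the geranylgeranyl reductase that makes the tail of chlorophyll, fell 1.71-fold. HEMB1, which makes porphobilinogen and is a known FHY3 target, had 10.40, 10.43, 10.47 and 10.43 in far-red DEX, against 9.96, 10.01, 9.99 and 10.01 in dark DEX. The change was small and the arrays lay apart (1.36-fold higher, adjusted p = 3.57e-06). HEMA2, a glutamyl-tRNA reductase at the head of the pathway, rose 1.4-fold and HEMA3, its dim paralog, stood at 0.02 ± 0.09. NOL, a chlorophyll b reductase of chlorophyll breakdown, rose 1.67-fold, and CHLM, the magnesium protoporphyrin methyltransferase, stood at 0.02 ± 0.06 (adjusted p = 0.886). Among 38 genes of chloroplast biogenesis 9 rose and 9 fell (23.7% each), with a median of -0.01. The shares were 16.1% and 20.1% over all genes and 23.6% and 26.1% over all listed genes. CcdA, which carries reducing power across the thylakoid membrane, rose 1.56-fold, LPA1, an assembly factor of photosystem II, 1.53-fold, and FTSZ2-1, of the plastid division ring, 1.43-fold.

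The light signalling and clock list held 24 genes, of which 7 rose (29.2%) and 5 fell (20.8%), against 16.1% and 20.1% of all genes. Its median was 0.01 and its range from -1.35 to 3.37. HY5, PHYA, PHYB, CCA1 and TOC1 were not found by symbol with a single-gene probe set, so their changes are not described. HYH, the bZIP partner of HY5, had signals of 8.44, 8.45, 8.23 and 8.33 on the far-red DEX arrays, against 6.05, 6.48, 5.97 and 6.22 on the dark DEX arrays. The groups lay apart (4.54-fold higher, adjusted p = 1.9e-12). FHL, the phytochrome A import factor and FHY3 target, had 10.55, 10.62, 10.48 and 10.52 in far-red DEX, against 9.52, 9.51, 9.55 and 9.18 in dark DEX. All far-red arrays were higher, by 2.14-fold on average (log2 change 1.10 ± 0.13, adjusted p = 4.25e-07). AFR, an F-box protein needed for the full response to far-red light, rose 1.58-fold.

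LSH9, of a family first known from a light-dependent short hypocotyl mutant, fell. Its signal was 8.26, 8.30, 8.17 and 8.23 in far-red DEX, against 9.81, 9.55, 9.44 and 9.57 in dark DEX, with no overlap (2.55-fold lower, adjusted p = 1.75e-11). AT1G72390, named PHL for its link to phytochrome-dependent flowering, fell 1.38-fold and the clock gene TIC 1.28-fold. The clock gene XCT and the histone deacetylase gene HDA15, a partner of PIF3, both stood at 0.00 (adjusted p = 0.995 and 0.993).

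COR27, a cold-induced gene that acts in light signalling and the clock, belongs to both this list and that of cold and dehydration. Its signal was 9.62, 9.60, 9.64 and 9.69 on the far-red DEX arrays, against 6.24, 6.64, 6.10 and 6.08 on the dark DEX arrays, 10.4-fold higher (adjusted p = 1.15e-14). The spread within far-red was small (SD 0.04) beside that in the dark (SD 0.26). Of the 12 cold and dehydration genes 7 rose and 2 fell, with a median of 0.40. Beside COR15A, COR15B and COR27, TIL, a membrane lipocalin for heat and cold tolerance, rose 3.31-fold, DI21, induced by drought, 1.88-fold and SRC2 1.38-fold. Not all cold genes moved: LTI30, a dehydrin, stood at 0.06 ± 0.11 (adjusted p = 0.706), and RD2 fell 1.17-fold (adjusted p = 0.0138).

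More genes of the cell wall fell than rose. Over 7 lists of wall enzymes and proteins with 87 genes, 40 fell (46.0%), 6 rose (6.9%) and 41 were not called, with a median of -0.13. Of 19 expansins 7 fell and 2 rose. EXPA8 fell 2.12-fold and EXPB1 as given above, while EXPA16 rose 1.73-fold and AT4G30380, the expansin-like gene EXLB2, 1.92-fold. Of 10 XTH genes, whose enzymes cut and rejoin xyloglucan, 6 fell, XTH26 by 2.62-fold and XTH19 by 2.22-fold, and EXGT-A3 alone rose (1.19-fold, adjusted p = 0.0101).

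Of 24 TBL genes, acetyltransferases of wall polysaccharides, 12 fell and 1 rose. TBL41 had signals of 7.51, 7.59, 7.38 and 7.28 on the far-red DEX arrays, against 10.33, 9.91, 10.03 and 10.15 on the dark DEX arrays. That is 6.34-fold lower without overlap (log2 change -2.66 ± 0.10, adjusted p = 1.64e-14). TBL38 fell 2.4-fold, and the member that rose, TBL28, changed by 0.25 ± 0.09 (adjusted p = 0.0419), a call that was lost at 0.21 to 0.25 when any one of dark DEX replicates 1, 2 and 4 or far-red DEX replicates 1, 2 and 4 was left out, and at 0.25 with a trended and robust variance prior. Of 15 GH9 genes, endoglucanases that trim cellulose, 7 fell and 0 rose. GH9B13 had 7.79, 7.73, 8.06 and 7.63 in far-red DEX, against 9.94, 10.06, 9.95 and 9.93 in dark DEX, 4.5-fold lower (adjusted p = 3.15e-13), and GH9C2 fell 3.65-fold. Among 7 pectin enzymes 4 fell and 1 rose. The pectin methylesterase genes PME61 and ATPMEPCRD fell 5.9-fold and 3.09-fold, and GAUT15, a galacturonosyltransferase, rose 2.01-fold.

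Subtilases, proteases that mostly act outside the cell, fell in 6 of 10 genes and rose in 0, with a median of -0.28. ATSBT5.2 fell 5.12-fold (adjusted p = 1.91e-13). Cytoskeletal genes also fell more often than they rose: of 18 microtubule and actin genes 10 fell and 1 rose, with a median of -0.25. TUB1, a beta-tubulin gene known to be repressed by light through phytochrome, had signals of 9.47, 9.28, 9.35 and 9.21 on the far-red DEX arrays, against 11.26, 11.52, 11.08 and 11.09 on the dark DEX arrays. The groups lay apart by 3.75-fold (adjusted p = 1.88e-12). TUA6, an alpha-tubulin, fell 1.55-fold and ACT11, an actin, 1.68-fold, and the member that rose was SP1L2, of the SPIRAL family of microtubule proteins (1.29-fold). Of 15 IQD genes, whose proteins link calmodulin to microtubules, 7 fell and 3 rose, with IQD19 2.55-fold lower.

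**Figure D2:**
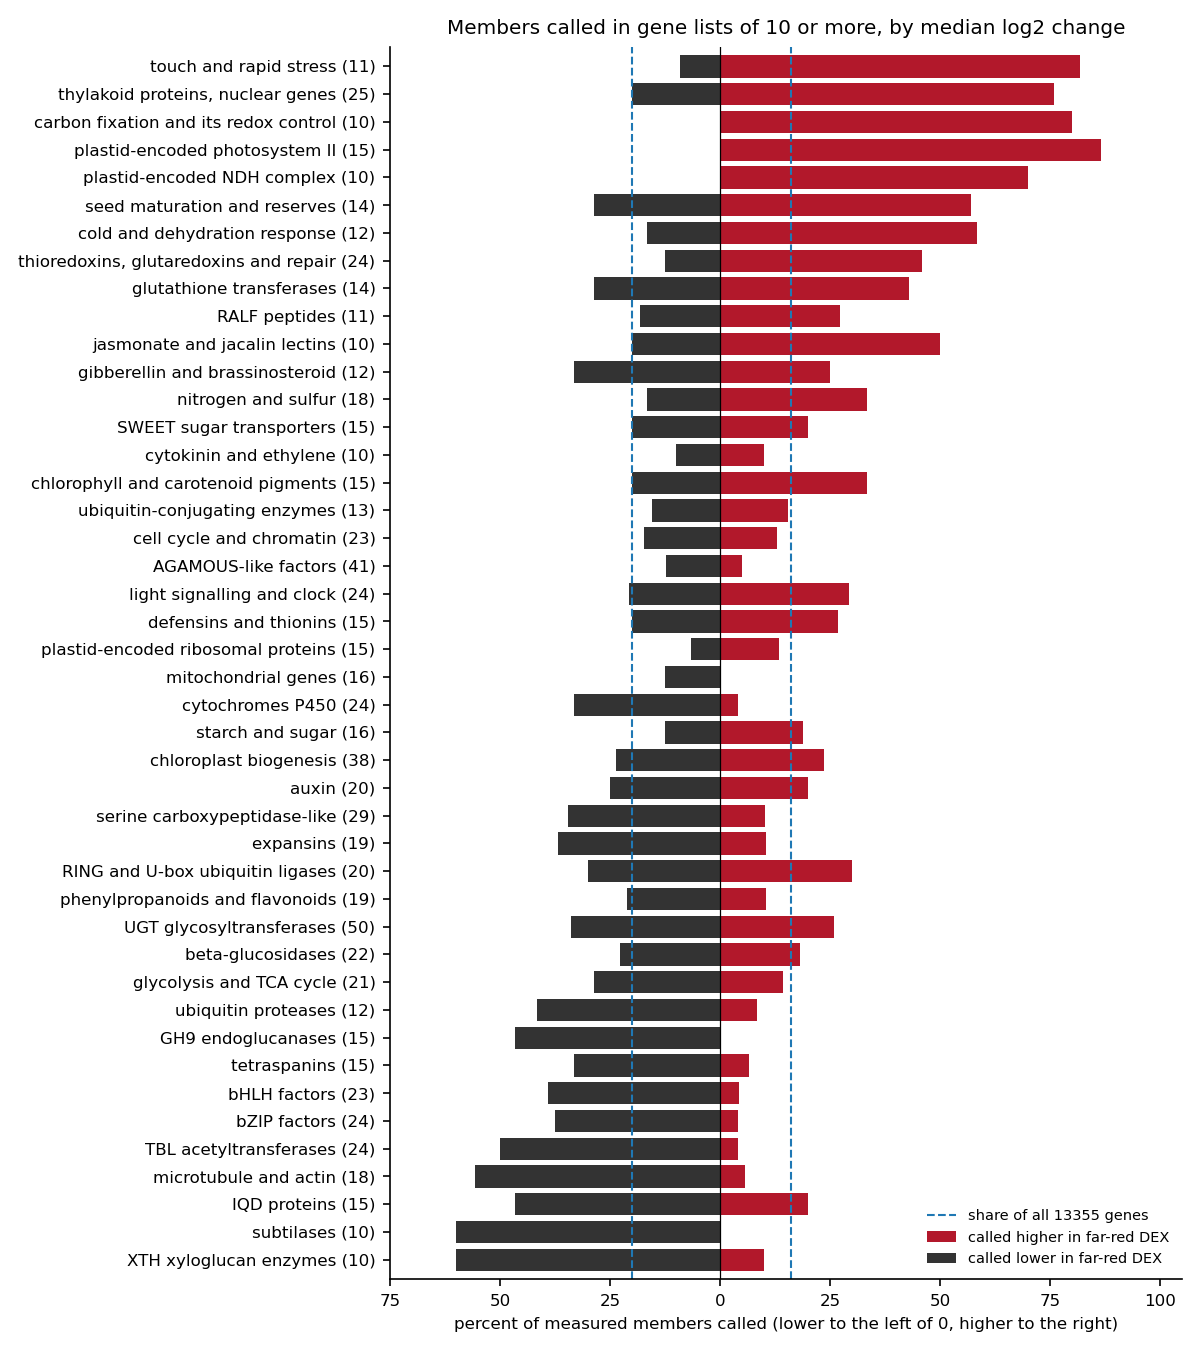
Percent of measured members called higher (red, right of 0) and lower (dark, left of 0) in far-red DEX for each gene list with 10 or more members, ordered by median log2 change; the number of members is in brackets, and dashed lines mark the shares of all 13355 genes (16.1% higher, 20.1% lower). Lists of photosynthesis genes stand at the top with rapid stress genes, and XTH genes, subtilases and cytoskeletal genes at the bottom.

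Hormone genes moved in both directions. Of 20 auxin genes 4 rose and 5 fell, with a median of -0.03. WAG2, a kinase that directs auxin efflux carriers, fell 3.27-fold, and the LBD29 and LBD16 genes, regulators of lateral root formation, fell 1.88-fold and 1.52-fold. IAGLU, which conjugates auxin to glucose, rose 1.61-fold, and IAA29, an auxin response repressor, 1.58-fold. Of 12 gibberellin and brassinosteroid genes 3 rose and 4 fell. The gibberellin receptor genes went apart, GID1A 1.84-fold higher and GID1B 1.29-fold lower, and BIM1, a partner of the brassinosteroid factor BES1, fell 1.47-fold. JRG21, a jasmonate-regulated dioxygenase gene, had 7.17 ± 0.26 in far-red DEX and 3.73 ± 0.07 in dark DEX (SD, n = 4 each), 10.8-fold higher against a dim dark signal, while JAL34, a jacalin-like lectin, fell 1.81-fold. XERICO, a RING protein that raises abscisic acid levels, fell 2.02-fold.

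Sugar and nitrogen transporters changed one by one. Of 15 SWEET genes, which carry sugars across membranes, 3 rose and 3 fell (20.0% each), near the 16.1% and 20.1% of all genes. SWEET2, a transporter of the vacuole, had 9.62, 9.53, 9.60 and 9.61 in far-red DEX, against 6.93, 6.45, 6.69 and 7.05 in dark DEX, 7.02-fold higher without overlap. SWEET16, also of the vacuole, fell 1.59-fold, SWEET11, which exports sucrose for phloem loading, fell 1.55-fold, and SAG29, also called SWEET15, stood at 0.04 ± 0.08 (adjusted p = 0.783). Of the NPF family of nitrate and peptide transporters, AT1G59740 (NPF4.3) rose 3.03-fold, AT3G21670 (NPF6.4) 2.2-fold and AT1G68570 (NPF3.1) 2.15-fold, and AT2G26690 (NPF6.2) fell 1.62-fold.

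Of 24 genes for thioredoxins, glutaredoxins and repair enzymes 11 rose and 3 fell. The plastid thioredoxin gene ty2 rose 2.13-fold and SRX, the sulfiredoxin that restores peroxiredoxins, 1.8-fold. The methionine sulfoxide reductase genes parted, MSRB6 2.38-fold higher and MSRB9 2.37-fold lower. Among 14 glutathione transferases 6 rose and 4 fell, GSTU18 2.32-fold higher and GSTU26 1.86-fold lower.

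In specialised metabolism, 13 of 50 UGT glycosyltransferases rose (26.0%) and 17 fell (34.0%), against 16.1% and 20.1% of all genes. Over all listed genes the shares were 23.6% and 26.1%. UGT78D2, which glucosylates flavonols and anthocyanins, rose 2.08-fold and UGT84A3, which glucosylates hydroxycinnamates, 2.93-fold. HCT, which opens the branch to lignin, fell 2.24-fold, and AT3G13610, the feruloyl-CoA hydroxylase of scopoletin synthesis, 1.88-fold. Of 9 genes of glucosinolates and ER bodies 5 fell and 1 rose: AOP1 fell 3.25-fold, NAI1, the bHLH factor of ER bodies, 2.84-fold and UGT74B1, a glucosinolate glucosyltransferase, 2.21-fold, and BCAT4, of methionine chain elongation, rose 1.73-fold. Of 24 cytochromes P450 8 fell (33.3%) and 1 rose (4.17%), and the 37.5% called is near the 36.2% of all genes. Of 29 serine carboxypeptidase-like genes 10 fell (34.5%) and 3 rose (10.3%), with scpl40 3.91-fold lower. Among 8 genes of cuticle lipids, FACT, an acyltransferase of alkyl caffeates, rose 3.35-fold and AT5G61590, the wax repressor DEWAX, 2.17-fold, while FATB, a fatty acid thioesterase, fell 1.88-fold.

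Antimicrobial peptides spanned a wide range, with 4 of 15 defensin and thionin genes higher (26.7%) and 3 lower (20.0%), against 16.1% and 20.1% of all genes. Over all listed genes the shares were 23.6% and 26.1%. THI2.2, a thionin, had 9.05, 9.04, 9.20 and 9.02 in far-red DEX, against 5.96, 5.98, 5.73 and 5.69 in dark DEX, 9.42-fold higher. PDF2.1 rose 6.42-fold and LCR67 3.79-fold, both defensin genes, and PDF2.5 fell 3.34-fold. Among transcription factor families more members fell than rose: 9 of 23 bHLH genes fell and 1 rose, 9 of 24 bZIP genes fell and 1 rose, and HYH was the bZIP gene that rose. bZIP44 fell 1.55-fold. Of 41 AGAMOUS-like genes 17.1% were called, under the background of 36.2%, and 9 of the 41 were brighter than the lower quartile of probe sets.

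The list of touch and rapid stress had the highest median change of the 62 lists. The lists were chosen with earlier results of these data known, so this rank only describes the list as drawn. Some of its members also belong to the calmodulin-like, WRKY and ubiquitin ligase lists. Of its 11 genes 9 rose and 1 fell, with a median of 0.94. WRKY22, a factor of immunity and of the dark and low-oxygen response, had 10.68, 10.71, 10.78 and 10.79 in far-red DEX, against 8.56, 8.32, 8.44 and 8.43 in dark DEX. It was 4.94-fold higher without overlap (adjusted p = 1.4e-12). CML38, a calmodulin-like calcium sensor, had 11.98, 12.15, 12.05 and 11.92 in far-red DEX, against 9.85, 9.95, 9.89 and 9.36 in dark DEX, 4.8-fold higher. CML37 rose 3.66-fold against a dim dark mean of 3.72, STZ, a zinc finger repressor also called ZAT10, 3.21-fold, and the U-box ubiquitin ligase genes PUB22 and PUB23 2.32-fold and 1.92-fold. WRKY53, a senescence regulator, fell 1.95-fold, and PUB24 stood at -0.09 ± 0.12 (adjusted p = 0.65).

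Of 14 genes of seed maturation and reserves 8 rose and 4 fell, with a median of 0.45 and a range from -1.99 to 2.56. M17, a late embryogenesis abundant (LEA) gene, had 10.12, 9.64, 9.44 and 9.34 in far-red DEX, against 7.21, 7.66, 6.63 and 6.82 in dark DEX, 5.88-fold higher (adjusted p = 6.51e-09). The LEA genes AtLEA4-1, LEA18 and LEA4-5 rose 3.07-fold, 2.95-fold and 2.84-fold, while M10 stood at 0.17 ± 0.14 (adjusted p = 0.368). OLEO3, an oleosin that coats oil bodies, went the other way: 6.85, 6.85, 7.07 and 6.94 in far-red DEX, against 8.94, 9.11, 9.0 and 8.61 in dark DEX, 3.96-fold lower. ICL, isocitrate lyase, which turns seed oil into sugar, fell 1.42-fold, and SDP1-LIKE, a lipase gene, 1.28-fold. The summed linear signal of the 4 seed and embryo markers was 922 to 1070 in far-red DEX and 712 to 863 in dark DEX. This sum joins opposite changes, since 3 markers were called higher and 1, OLEO3, lower, with changes from -1.99 to 1.56. The markers overlap the list described here and so give no separate check of it, and their part in these results was not tested.

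The mock arrays give the same light comparison in seedlings without nuclear FHY3-GR, on separate arrays. Under mock 8782 probe sets were called (38.6%), 4050 higher (17.8%) and 4732 lower (20.8%), and 35.1% of the 13355 genes. Of the probe sets higher under DEX 76.4% were also higher under mock, and these 3033 are 74.9% of those higher under mock. Of those lower under DEX 75.7% were also lower under mock, and these 3829 are 80.9% of those lower under mock. The changes under DEX and under mock correlated at 0.902 over the 22746 probe sets, which do not count as replicates. The medians of the larger lists can be set side by side: the 42 plastid photosynthesis genes had medians of 0.58 under DEX and 0.60 under mock, the 87 wall genes -0.13 under DEX and -0.18 under mock, and the 25 thylakoid genes 0.69 under DEX and 0.84 under mock. In none of the thylakoid, plastid photosynthesis, carbon fixation and pigment lists was the difference of the light response between DEX and mock called for any member. Among the 87 wall genes the difference was called for 4, positive for AT4G30380 (0.94 under DEX and -0.34 under mock) and GAUT15 (1.01 under DEX and 0.15 under mock). It was negative for XTH26 (-1.39 under DEX and -0.73 under mock) and for the acetyltransferase gene TBL35 (-0.94 under DEX and -0.35 under mock). COR15A changed by 5.06 under DEX and 4.69 under mock, HYH by 2.18 under DEX and 2.19 under mock, and TUB1 by -1.91 under DEX and -2.03 under mock. For these 3 genes the difference was not called (adjusted p = 0.345, 0.993 and 0.799).

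The difference itself, tested as an interaction of light and DEX, was called for 488 probe sets (2.15%), 386 positive (1.7%) and 102 negative (0.448%), and for 1.85% of the 13355 genes. Negative calls numbered 154 without dark mock replicate 2 and 153 without far-red mock replicate 4. It is positive where the change under DEX lies above that under mock. Touch and rapid stress genes held 8 positive differences among 11 members, against 1.51% positive and 0.337% negative over all genes. Both this list and that of seed maturation were chosen with earlier results of these data known. Their counts describe the members and are no test of either group. CML38 changed by 2.26 under DEX and 0.71 under mock, PUB22 by 1.21 under DEX and 0.48 under mock, and WRKY22 by 2.30 under DEX and 1.37 under mock (adjusted p of the difference 0.000133, 0.000145 and 0.00174). For CML38 the mean signals were 12.02 in far-red DEX, 9.76 in dark DEX, 11.89 in far-red mock and 11.18 in dark mock, so the dark DEX arrays held the low value. Seed maturation genes held 4 positive differences among 14. M17 changed by 2.56 under DEX and 1.06 under mock, LEA18 by 1.56 under DEX and 0.91 under mock, and LEA4-5 by 1.51 under DEX and 0.90 under mock. For M17, LEA18 and LEA4-5 in turn, far-red means were 9.64, 8.69 and 8.69 under DEX and 9.69, 8.79 and 8.65 under mock. Their dark means were 7.08, 7.13 and 7.18 under DEX and 8.63, 7.88 and 7.75 under mock.

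**Figure D3:**
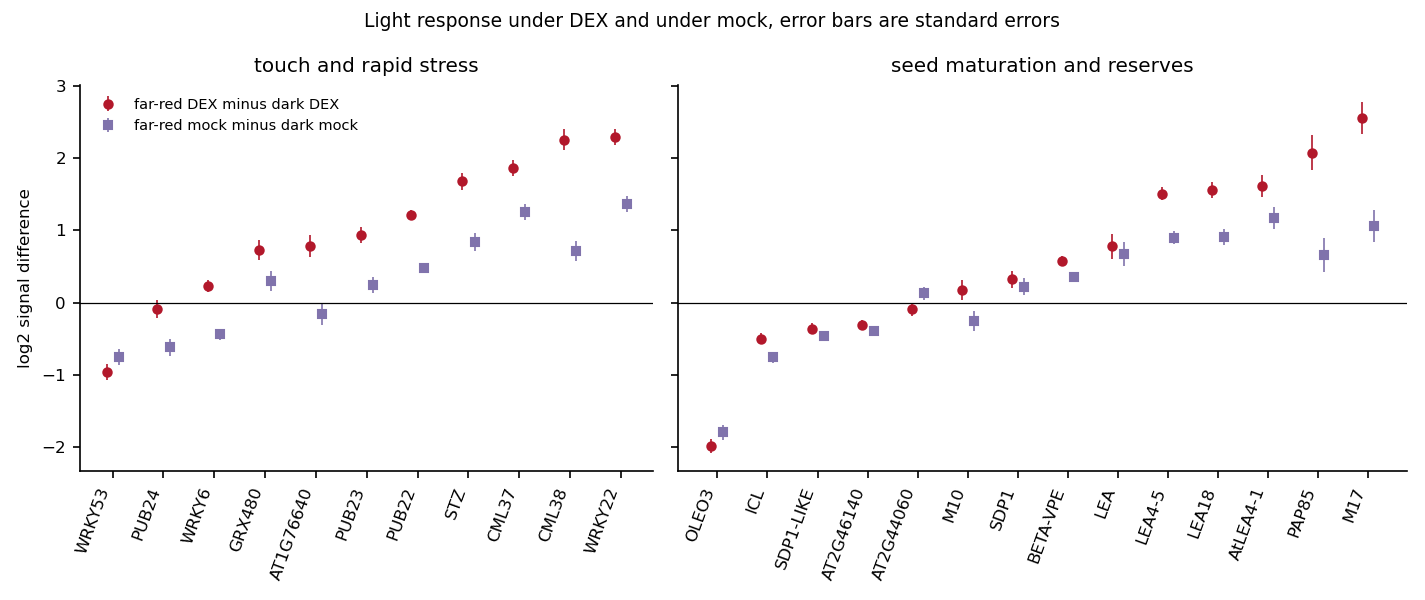
Log2 light response of the 11 touch and rapid stress genes (left panel) and the 14 seed maturation genes (right panel) under DEX (red circles) and under mock (purple squares); bars are standard errors. The red circles lie above the purple squares for 10 of the 11 stress genes, WRKY53 being the exception, and the widest gap among seed genes is that of M17 (2.56 under DEX and 1.06 under mock).

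The largest called differences lay outside photosynthesis. AT1G20310 rose 3.47-fold under DEX and fell by 0.40 on the log2 scale under mock, the largest positive difference (2.2 ± 0.17, adjusted p = 3.11e-07). Its mean signals were 6.75 in far-red DEX, 4.95 in dark DEX, 6.61 in far-red mock and 7.01 in dark mock. BGLU19, a beta-glucosidase gene, had 8.41, 8.57, 8.45 and 8.60 in far-red DEX, against 5.66, 5.30, 5.25 and 5.67 in dark DEX, and changed by 3.04 under DEX and 0.91 under mock. Means of BGLU19 were 8.51 in far-red DEX, 5.47 in dark DEX, 8.21 in far-red mock and 7.30 in dark mock. AT5G42200 changed by 2.63 under DEX and 0.52 under mock, PDF2.1 by 2.68 under DEX and 0.61 under mock, and AT4G02170 by 2.2 under DEX and 0.37 under mock. In the order far-red DEX, dark DEX, far-red mock and dark mock, AT5G42200 averaged 10.75, 8.12, 10.93 and 10.41. PDF2.1 averaged 7.81, 5.13, 7.59 and 6.97 in that order, and AT4G02170 8.69, 6.49, 8.81 and 8.44. For each gene named so far in this paragraph, dark DEX held the lowest mean of all groups. Among negative differences AT2G42900 fell by 1.51 under DEX and by 0.30 under mock, a difference of -1.21. ALC, a bHLH gene of fruit opening, changed by -0.27 under DEX and 0.77 under mock, and SAG29 by 0.04 under DEX and 0.86 under mock. Opposite calls under DEX and mock were found for 41 probe sets. Among genes named here, AT4G30380, WRKY6 and AT1G20310 were higher under DEX and lower under mock, and ALC, ATL8 and AT1G49450 lower under DEX and higher under mock. The calls under DEX of WRKY6 (0.20 to 0.23) and ALC (-0.22 to -0.27) were lost when any of several single arrays was left out: dark DEX replicates 2 and 4 and far-red DEX replicates 1 and 2 for WRKY6, and dark DEX replicates 1, 2 and 3 and far-red DEX replicates 1, 3 and 4 for ALC. That of ALC was also lost with quantile normalisation (-0.23). FHL changed by 1.10 under DEX and 0.44 under mock, a difference of 0.66 ± 0.18 that missed the threshold (adjusted p = 0.0612). Its mean signals were 10.54 in far-red DEX, 9.44 in dark DEX, 10.85 in far-red mock and 10.42 in dark mock. In each light the DEX mean of FHL lay below the mock mean, and DEX against mock within a light was not tested here.

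**Figure D4:**
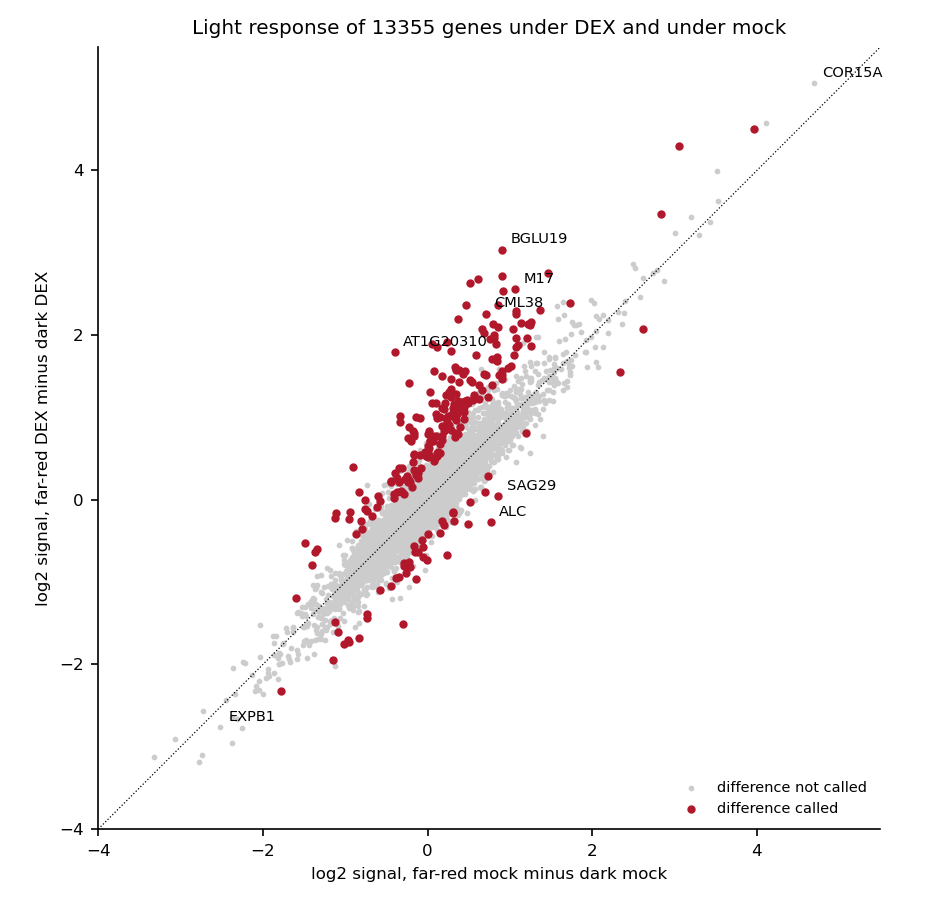
Log2 light response under DEX (vertical axis) and under mock (horizontal axis) for 13355 genes, 1 point each; the dotted line marks equal responses, and red points have a called difference. Most points follow the line from EXPB1 at the lower left to COR15A at the upper right, and the red points above it include BGLU19 (3.04 under DEX and 0.91 under mock), M17 and CML38.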

How the data were processed

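Total RNA of 16 seedling samples was hybridised to Affymetrix ATH1 arrays, 4 arrays in each of 4 groups taken from the sample titles. The values are the authors' log2 signals per probe set, as deposited. The affy package and RMA are named per the submitters' processing notes, with no version or settings; how samples were primed and which probe set definition was used is not given in the sources used here. The number of arrays limits the precision.

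From the deposited log2 values, 64 control probe sets were left out and the other 22746 were fitted over all 16 arrays with limma 3.58.1 in R 4.3.3 (lmFit with a mean per group, then eBayes). Contrasts were far-red DEX minus dark DEX, far-red mock minus dark mock, and their difference, each adjusted by Benjamini-Hochberg over all probe sets and called under 0.05. A fold is 2 raised to the size of the log2 change. Dim means a mean signal under 4.45, the lower quartile. Of the probe sets 13513 pair with 1 gene, 503 with several and 8730 are unnamed here. Symbols came from RefSeq's TAIR10.1 annotation (13436 matched), and a gene's brightest probe set stands for it. For 147 genes with several single-gene probe sets, calls under DEX differed between probe sets in 53 and were opposite in 1. Tested on simulated data for the DEX light comparison over 22746 probe sets, the fit recovered 80 of 100 changes of 0.5 and 100 of 100 of -1, with 14 false calls. The simulated noise was independent between probe sets, and far fewer probe sets changed than the 39.7% called in the data. These figures therefore check the fit and do not give its recovery or false calls in the real comparison.

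The gene lists and the genes named were chosen with earlier results of these data known. Named genes are drawn from the 15 largest rises, the 15 largest falls, and the 10 largest positive and 10 largest negative called differences. From each list with 3 or more measured genes came up to 6 members with the smallest p. Up to 3 in the direction with fewer calls and up to 2 with the largest p were also drawn from each. Added to these were 30 genes of light signalling, the clock, photosynthesis, pigments, flavonoids and the cold response. Of these, 7 were found by symbol with a single-gene probe set. The others were not found in this way, which does not show that the array lacks them. Counts, gene lists and named genes were recomputed with other samples in the fit, a replicate block, another variance prior, array weights, quantile normalisation, a filter on dim probe sets, stricter thresholds and each array left out; counts also with 1 probe set per gene. Promoter and protein sequences were not used here.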

Additional observations from a re-analysis of the deposited data

Results flagged for a closer look

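In 21 of 346 sets of 4 arrays (173 named genes, far-red DEX and dark DEX) 1 array stood apart from the other 3 by more than Dixon's 95% critical value; chance alone gives about 1 in 20. On dark DEX replicate 4 these were FHL (9.18), AT4G30380 (7.54), GH9C2 (8.94), PDF2.1 (4.95), CML38 (9.36) and AT4G22460 (9.61). On dark DEX replicate 2 they were AT1G72390 (7.76), ndhD (8.47), GH9B13 (10.06) and IAA29 (7.56). On far-red DEX replicate 1 they were psbD (7.04), ndhH (4.42), AOP1 (6.61) and AT3G27270 (5.27), and on replicate 2 LHCB4.1 (12.84). On far-red DEX replicate 3 they were THI2.2 (9.20) and scpl40 (5.09), and on replicate 4 FTSZ2-1 (8.08), EXPB1 (4.64), BGLU15 (9.01) and UGT84A3 (6.17). All are log2 signals.

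For 33 named genes the light response under DEX differed from that under mock by the interaction test. The difference, DEX minus mock on the log2 scale, was positive in 24 genes. Among stress and calcium genes it was 1.55 for CML38, 0.94 for AT1G76640 and WRKY22, 0.84 for STZ, 0.73 for PUB22, 0.70 for PUB23, 0.68 for WRKY6 and 0.61 for CML37. Among seed, cold and redox genes it was 1.5 for M17, 0.65 for LEA18, 0.61 for LEA4-5, 0.89 for TIL and 0.52 for MSRB6. BGLU19 differed by 2.13, PDF2.1 by 2.07 and LCR67 by 1.68. In wall and hormone genes it was 1.28 for AT4G30380, 0.85 for GAUT15 and 0.49 for GID1A. Loci without a symbol were AT1G20310 (2.2), AT5G42200 (2.11), AT4G02170 (1.83), AT1G15010 (1.24) and AT3G28220 (0.54). It was negative for AT2G42900 (-1.21), ALC (-1.04), AT1G49450 (-0.91), AT3G27270 (-0.85), SAG29 (-0.82), ATL8 (-0.78), XTH26 (-0.66), TBL35 (-0.59) and SWEET11 (-0.51).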

How the results depend on the processing

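Under DEX, 3972 probe sets were higher and 5055 lower. These counts were 2103 and 2620 with 1 single-gene probe set per gene, 1651 and 1598 at a fold of at least 1.5, and 773 and 550 at a fold of at least 2. Leaving out each array gave 3638 to 3755 higher and 4619 to 4825 lower. Under mock the counts were 2212 higher and 2382 lower with 1 probe set per gene, and 3682 to 4010 higher and 4326 to 4679 lower with each array left out. Positive differences (386) numbered 197 with 1 probe set per gene and 216 at an adjusted p under 0.01, and 292 to 515 with each array left out. Negative differences (102) numbered 43, 41 and, with array weights, 158, and 76 to 154 with each array left out. The causes were not tested, beyond the fewer features and stricter limits built into the settings.

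With the replicate block the calls under DEX were 4005 higher and 5090 lower, under mock 4142 and 4777, and the differences 419 positive and 119 negative. Same-numbered arrays of far-red DEX and dark DEX correlated at 0.016 to 0.089 in their deviations from the group means. Such low values cannot exclude that the numbers pair the samples, and mock arrays were not compared in this way. Over the alternatives that keep all probe sets or the brighter ones, 3181 to 3950 of the higher and 3963 to 5033 of the lower probe sets kept their call and 0 turned. Of 2590 values of 173 named genes 58 lost the call, 5 gained it and 0 reversed; 12 genes were affected. Of 1860 list counts 145 moved by over 1.5 times, in 34 of 124 results. Low signal limits calls among dim probe sets.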
